A study of Mus musculus with 28 samples.

Results

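The glucocorticoid-responsive genes examined here are 10 genes that the glucocorticoid receptor is known to induce, namely Tsc22d3, Pdk4, Fkbp5, Sgk1, Per1, Zbtb16, Nfkbia, Errfi1, Mt1 and Mt2. They were taken by symbol from a table of 24062 genes, all 10 were found, and all 10 passed the low count filter that left 16369 genes for testing. Counts of polyadenylated RNA came from the hippocampus of female mice, with 4 libraries in each of 7 groups. In the 3xTg genotype the groups were NAVI (navitoclax, also called ABT263), DQ (dasatinib plus quercetin) and 2 vehicle groups, labelled VehN and VehD. In the WT genotype, labelled BL6/129, they were NAVI, DQ and a single vehicle group labelled Veh. The 3xTg line carries human App and Mapt transgenes driven in neurons by a Thy1 cassette. All 16 3xTg libraries share these alleles, vehicle controls included, so the disease is modelled here through transgenes active in neurons. Navitoclax blocks anti-apoptotic BCL-2 proteins and dasatinib plus quercetin is a pair of kinase inhibitor and flavonoid, both given to remove senescent cells. The labels give no ages, no doses and no hour of tissue collection.

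The glucocorticoid receptor rests in the cytoplasm in a complex with heat shock chaperones, and corticosterone, the main glucocorticoid of the mouse, releases it to the nucleus. There it binds paired, inverted half-sites in DNA and raises transcription of genes such as those above, while it also holds back NF-kB and AP-1. The hippocampus carries both the glucocorticoid and the mineralocorticoid receptor, its level of these transcripts follows stress and the daily corticosterone rhythm, and several of them are also induced by other signals, metals in the case of the metallothioneins and light or cyclic AMP in the case of Per1.

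Libraries held between 32080861 and 54019519 counts. App lay at 2410 to 3805 CPM (counts scaled to the library total with TMM factors) in 3xTg libraries and at 1470 to 1800 CPM in WT libraries, and Thy1 at 1598 to 2602 CPM in 3xTg and 632 to 782 CPM in WT libraries, so both genes touched by the transgenes separated the genotypes without overlap. Markers of pyramidal neurons (8 of 8 tested) summed to at least 4655 CPM in each library. Neighbouring tissue was unevenly present. The 12 choroid plexus markers summed to 460 to 5552 CPM in 3xTg NAVI, 481 to 4718 in 3xTg DQ, 3764 to 8935 in VehN, 378 to 8207 in VehD, 625 to 5792 in WT NAVI, 456 to 7429 in WT DQ and 414 to 6343 in WT Veh. The 4 globin genes of the blood list were at 0 in every library, so they give no measure of blood here. The summed blood level rests on the 3 tested genes of that list. The reason for the missing globin counts was not tested.

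Per kilobase of exon, the metallothioneins had the most counts among the members. Mean levels over the 28 libraries were 91.5 CPM per kb for Mt2 and 62.5 for Mt1, then 27.2 for Sgk1, 19.6 for Tsc22d3, 17.5 for Errfi1 and 13.5 for Zbtb16. Nfkbia, Per1, Pdk4 and Fkbp5 lay close together at 9.44, 9.25, 9.11 and 8.89 CPM per kb. Sgk1 varied most between libraries, with a highest level 3.07-fold above its lowest, followed by Pdk4 (2.90-fold) and Mt2 (2.85-fold), and Errfi1 varied least (1.42-fold). Raw counts of the members ran from 440 for Nfkbia in its lowest library to 11788 for Sgk1 in its highest.

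**Figure D1:**
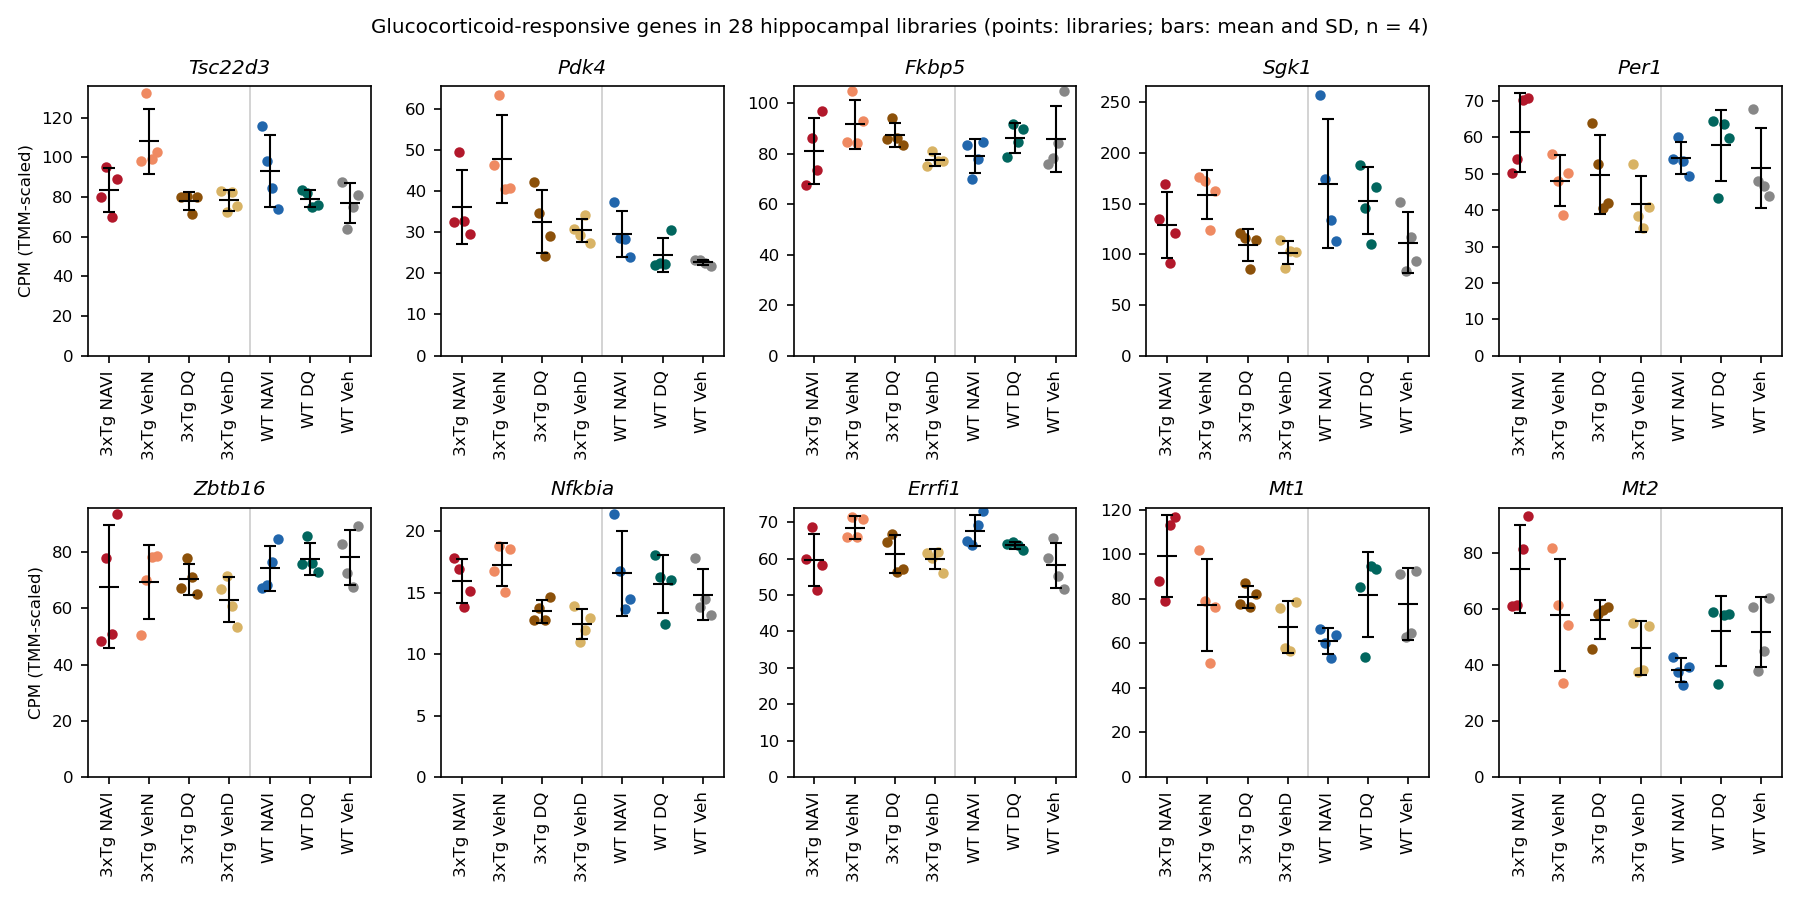
Level of each of the 10 genes in all 28 libraries, in CPM scaled by TMM factors on a linear axis from 0, with the 4 3xTg groups left of the line and the 3 WT groups right of it. Points are libraries, and bars give the mean and SD (n = 4). Tsc22d3, Pdk4, Sgk1 and Nfkbia are high in VehN beside VehD, and Mt1 and Mt2 are high in 3xTg NAVI beside WT NAVI.

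The promoter sequence of 2 members holds the palindromic letters of a glucocorticoid response element, and these are shown as matches of letters only. Binding of the receptor was not measured. Windows from 250 bases before to 50 bases after each start were taken from RefSeq (build GRCm38.p6, the assembly of mm10). They covered 9 of the 10 members, with 18 windows in all, and Zbtb16 had none. The half-sites GNACA and TGTNC, kept apart by any 3 bases and the same on both strands, were found in windows of Sgk1 and Mt1, and in 0.475% of all 32851 windows. In Sgk1 (chromosome 10, forward strand) the stretch chr10:21993640-21993729 lies before one of its alternative starts. Capitals mark the response element letters at 21993702 to 21993714 and, before them, the E-box letters CACGTG, which occur in 7.15% of windows.
Sgk1: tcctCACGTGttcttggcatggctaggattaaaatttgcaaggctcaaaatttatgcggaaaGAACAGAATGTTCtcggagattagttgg
In Mt1 (chromosome 8, forward strand) the stretch is chr8:94178979-94179081. Capitals mark the response element letters at 94178995 to 94179007 and 1 metal response core, TGCACNC, at 94179066 to 94179072.
Mt1: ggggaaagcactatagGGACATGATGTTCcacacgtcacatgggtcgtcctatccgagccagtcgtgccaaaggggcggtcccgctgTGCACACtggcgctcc
The stretch before Mt2, chr8:94172478-94172617 on the forward strand, had no match to the response element letters. Capitals mark 2 metal response cores, TGCGCNC on the forward strand and TGCACNC read on the reverse strand. Exons of Mt2 overlap those of the antisense gene Gm45774.
Mt2: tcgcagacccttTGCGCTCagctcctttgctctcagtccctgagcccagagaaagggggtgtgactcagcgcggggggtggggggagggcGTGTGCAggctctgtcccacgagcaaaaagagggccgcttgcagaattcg
On either strand, TGCACNC was in 12.6% of windows and TGCGCNC in 15.4%, and the motifs were searched without regard to overlap. Errfi1 held the cyclic AMP element TGACGTCA (1.79% of windows), and Per1 and Fkbp5 each held an E-box. Mt1 and Mt2 are close paralogs on chromosome 8, at 94179082 to 94180327 and 94172664 to 94173568. Mt2 shares 432 exon bases with Gm45774, and because the labels do not say whether counting used strand, reads of the pair cannot be told apart.

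The first comparison asked how the genes differ between genotypes without drug, with the mean of VehN and VehD set against WT Veh. Pdk4, a kinase that shuts pyruvate dehydrogenase and so spares glucose, was the 1 member of 10 that passed, and it rose. Of all tested genes 13.1% passed in this comparison, and 5.68% of all tested genes passed as higher, so 1 of 10 is near the background. Pdk4 had 46.3, 63.5, 40.6 and 40.8 CPM in VehN and 30.8, 29.5, 34.3 and 27.4 CPM in VehD, against 23.4, 23.2, 22.4 and 21.9 CPM in WT Veh. All 8 3xTg libraries lay above all 4 WT libraries, which 2.9% of genes did. The log2 fold change was 0.75 (SE 0.154, edgeR adjusted p = 0.00304). Against WT Veh, VehN alone was at 1.07 and passed, and VehD alone was at 0.42 and did not. As in any bulk tissue, more cells of a type and more RNA per cell cannot be told apart.

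The other 9 members did not pass between 3xTg and WT with vehicle, and 3 of 10 lay at an unadjusted p under 0.05, beside 32.3% of all genes. Tsc22d3, the leucine zipper protein also called GILZ that mediates anti-inflammatory effects of glucocorticoids, was at a log2 value of 0.26 (SE 0.103, edgeR adjusted p = 0.0895), and VehN alone put it at 0.49 and past the threshold. Errfi1, an inhibitor of the EGF receptor, was at 0.14 (SE 0.0671, edgeR adjusted p = 0.153), and passed with WT Veh replicate 2 left out (0.20). The remaining 7 lay between -0.24 for Zbtb16 and 0.19 for Sgk1. The median of the members was -0.01 beside 0.01 over all tested genes.

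The 2 vehicle groups of 3xTg were then set against each other, and here the members moved together. All 10 had a higher mean level in VehN than in VehD, as did 47.6% of all genes, with log2 values from 0.14 to 0.65. Their median was 0.28, beside -0.01 over all tested genes. None passed with edgeR, DESeq2 or limma-voom, in a comparison in which edgeR called 0% of genes. At an unadjusted p under 0.05 lay 6 of the 10 members, beside 4.93% of all genes. The groups did not overlap for 6 members, all of them higher in VehN, beside 1.48% of genes in that direction.

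Tsc22d3 had 98.1, 132, 99.3 and 102 CPM in VehN, against 83.2, 72.5, 82.5 and 75.2 CPM in VehD. The groups were apart, and VehN replicate 2 stood above the others. The log2 fold change was 0.46 (SE 0.118, edgeR adjusted p = 0.681). Nfkbia, which encodes the inhibitor that keeps NF-kB in the cytoplasm, had 16.8, 18.8, 15.1 and 18.5 CPM in VehN, against 13.9, 11.0, 11.9 and 13.0 CPM in VehD. It was likewise apart, at a log2 value of 0.47 (SE 0.131). Fkbp5, the co-chaperone that lowers the receptor's affinity for hormone in a feedback loop, had 84.6, 105, 84.5 and 92.9 CPM in VehN, against 75.2, 81.1, 77.2 and 77.2 CPM in VehD. Its groups were apart by a small margin, at a log2 value of 0.24 (SE 0.101). Errfi1 had 65.8, 71.5, 65.9 and 70.8 CPM in VehN, against 61.6, 60.2, 61.8 and 55.9 CPM in VehD, also without overlap (log2 0.19, SE 0.077).

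Sgk1, a kinase that regulates ion channels and transporters, had 177, 173, 124 and 162 CPM in VehN, against 114, 86.2, 103 and 102 CPM in VehD. VehN replicate 3 was the lowest of its group and still above all of VehD, and the log2 value was 0.65 (SE 0.220). Pdk4, whose levels are given above, was at 0.65 (SE 0.172, edgeR adjusted p = 0.714). The other 4 members overlapped between the vehicles. Per1, a repressor in the circadian clock, was at 0.21 (SE 0.166), Zbtb16, a zinc finger transcription factor, at 0.14 (SE 0.160), and the metal-binding proteins Mt1 and Mt2 at 0.19 (SE 0.184) and 0.32 (SE 0.220).

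A list of 24 further genes known to respond to glucocorticoids leaned the same way. Like the members, it was chosen with earlier results of these data known, so it is no independent check. Of the 24 genes, 22 were higher in VehN than in VehD, beside 47.6% of all genes. Their median log2 value was 0.27, beside -0.01 over all tested genes. At an unadjusted p under 0.05 lay 8 of them, beside 4.93% of all genes, and none passed. Hif3a, a hypoxia-inducible factor subunit, was at 0.93 (SE 0.260), the mTOR inhibitor Ddit4 at 0.42 (SE 0.118) and the sulfotransferase Sult1a1 at 0.64 (SE 0.232). Of the receptors and their partners, Nr3c1, the glucocorticoid receptor, was at -0.11 (SE 0.0837), Nr3c2, the mineralocorticoid receptor, at -0.01 (SE 0.106), the chaperone Fkbp4 at -0.16 (SE 0.140), and Hsd11b1, which regenerates active hormone, at 0.09 (SE 0.103). None of the 4 passed.

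**Figure D2:**
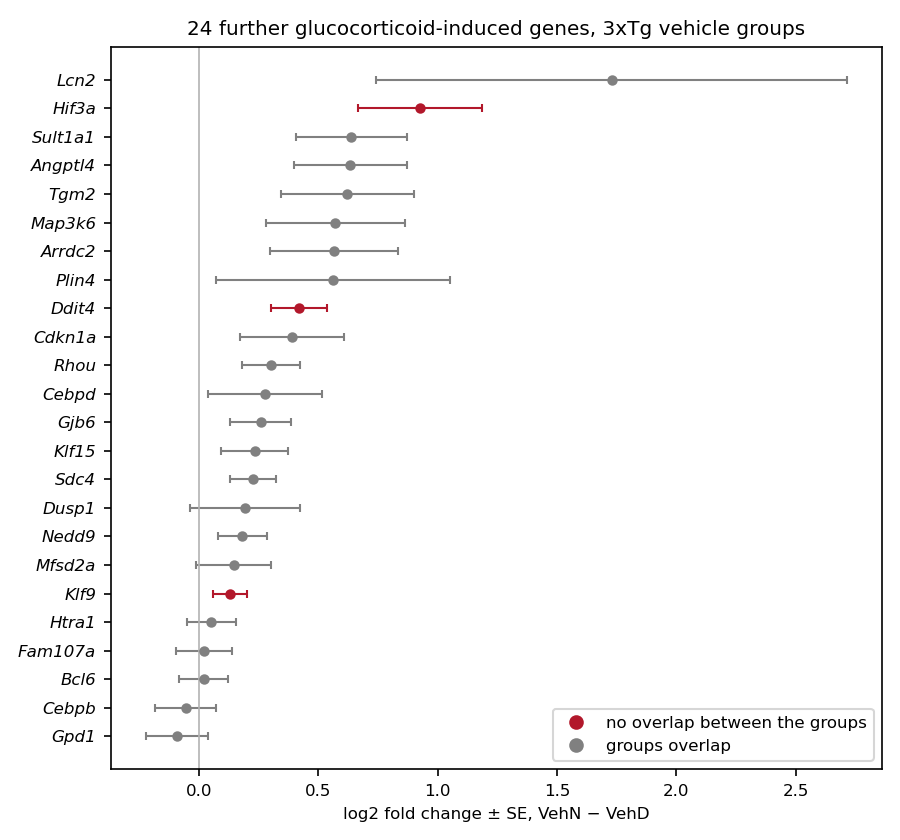
Difference between VehN and VehD in 3xTg for 24 further glucocorticoid-induced genes, as log2 fold change (points) with its SE (bars), ordered by size. Of the 24, 22 lie right of 0, beside 47.6% of all genes. The groups do not overlap for Hif3a, Ddit4 and Klf9 (red), beside 1.48% of all genes higher without overlap. The list was chosen with earlier results of these data known. None passed at an adjusted p under 0.05.

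Leaving out each vehicle library in turn kept all 10 members positive, and 4 to 7 of them lay at an unadjusted p under 0.05. The share of all genes under 0.05 moved too, from 2.51% without VehN replicate 2 to 8.04% without VehD replicate 4. Counts from different libraries left out are therefore not on the same footing. The counts of the 24 further genes moved more, with 2 at an unadjusted p under 0.05 without VehN replicate 2, 4 without VehD replicate 2, 5 without VehN replicate 1 or VehD replicate 3, and 8 to 11 without any other. With the levels of choroid plexus and thalamus markers as covariates 6 members and 7 of the further genes lay under 0.05, beside 4.24% of all genes. Other cell types differed between the vehicles as well. The 9 leptomeningeal markers summed to 453 to 551 CPM in VehN and to 178 to 443 CPM in VehD, the 8 pericyte and mural markers to 170.3 to 233 CPM in VehN and 103 to 167 CPM in VehD, and the 12 endothelial markers to 320.5 to 582 CPM in VehN and 257 to 401 CPM in VehD. Their part in the result was not tested.

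In 3xTg, NAVI was set against VehN, and no member passed with edgeR, which called 0% of genes here. DESeq2 called 1 member, Tsc22d3, and limma-voom none. At an unadjusted p under 0.05 lay 4 members, close to the 29.1% of all genes that did. Tsc22d3 had 79.8, 95.2, 70.1 and 89.2 CPM with NAVI, all below the VehN libraries (2.6% of genes were lower without overlap), at a log2 value of -0.37 (SE 0.118, edgeR adjusted p = 0.0678). Pdk4 had 32.5, 49.6, 32.8 and 29.7 CPM with NAVI, where replicate 2 lay within the VehN range, at -0.40 (SE 0.171). Errfi1 was at -0.20 (SE 0.0771) and Per1 at 0.35 (SE 0.166).

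These values depend on the vehicle. Against the mean of VehN and VehD, Tsc22d3 was at -0.14 and Pdk4 at -0.08, neither passing, while Per1 was at 0.45 and passed. Per1 had 50.1, 54.1, 70.4 and 71.0 CPM with NAVI, 55.5, 48.1, 38.7 and 50.2 CPM in VehN and 52.7, 38.3, 35.0 and 40.9 CPM in VehD, so 2 NAVI libraries stood above all vehicle libraries and 2 lay among them. Single libraries also mattered for the comparison with VehN: Tsc22d3, Pdk4 and Errfi1 passed with NAVI replicate 2 left out (log2 -0.43, -0.58 and -0.27), and Tsc22d3 and Mt1 with VehN replicate 1 left out. Without VehN replicate 2, Pdk4 was at -0.24 and Tsc22d3 at -0.26, and neither passed. Over all genes the number called moved as well, from 0 without NAVI replicate 3 to 3578 without VehN replicate 1.

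In WT, NAVI was set against Veh. No member passed with edgeR, DESeq2 or limma-voom, and edgeR called 0% of genes, while 4 members lay at an unadjusted p under 0.05, beside 7.74% of all genes. All 4 were higher with NAVI. Sgk1 had 257, 174, 134 and 113 CPM with NAVI, against 151, 83.7, 117 and 93.7 CPM with vehicle, so the groups overlapped and replicate 1 was the highest in each, at a log2 value of 0.61 (SE 0.220, edgeR adjusted p = 0.614). Without WT NAVI replicate 1, Sgk1 was at 0.33, Tsc22d3 at 0.15 and Pdk4 at 0.25. Tsc22d3 had 116, 97.9, 84.4 and 73.9 CPM with NAVI, against 87.8, 64.0, 74.8 and 81.0 CPM with vehicle, so they overlapped too, at 0.27 (SE 0.118). Pdk4 had 37.5, 28.6, 28.4 and 24.1 CPM with NAVI, all above the vehicle libraries (2.5% of genes were higher without overlap), at 0.38 (SE 0.173). Errfi1 was at 0.22 (SE 0.0771). Nr3c1 was also higher without overlap, at 160.0 ± 6.43 CPM with NAVI and 135 ± 14.3 CPM with vehicle (SD, n = 4 each), a log2 value of 0.25 (SE 0.0838) that did not pass.

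**Figure D3:**
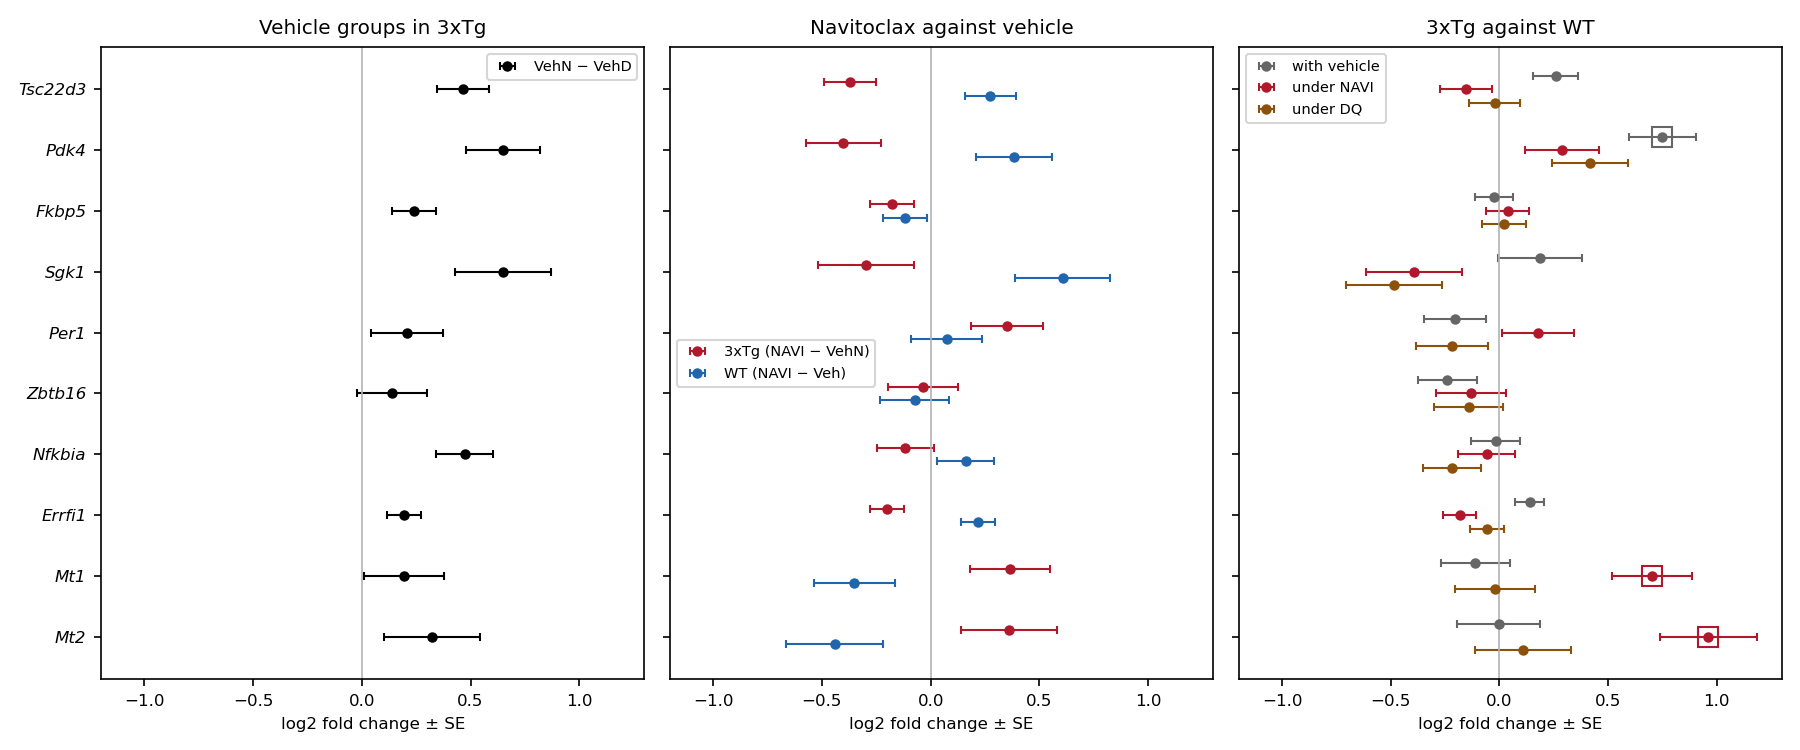
Log2 fold change of each member (points) with its SE (bars) between the 3xTg vehicle groups (left), for NAVI against vehicle in each genotype (middle) and for 3xTg against WT with vehicle, under NAVI and under DQ (right). Open squares mark an edgeR adjusted p under 0.05, which Pdk4 reached with vehicle and Mt1 and Mt2 under NAVI. In the middle panel Tsc22d3, Pdk4, Sgk1 and Errfi1 lie left of 0 in 3xTg and right of 0 in WT.

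The test of the difference between the genotypes' NAVI effects gave calls where the effects themselves did not, but those calls did not hold under every setting. Among the calls were 3 members, Tsc22d3 at -0.64 (SE 0.167, edgeR adjusted p = 0.0427), Pdk4 at -0.78 (SE 0.244, adjusted p = 0.0480) and Errfi1 at -0.42 (SE 0.109, adjusted p = 0.0427), all lower in 3xTg than in WT. The 3 of 10 stand beside 8.13% of all genes called and 2.24% called lower. Sgk1 was at -0.90 (SE 0.311, adjusted p = 0.0610), Mt1 at 0.71 (SE 0.260, adjusted p = 0.0706) and Mt2 at 0.80 (SE 0.312, adjusted p = 0.0829). At an unadjusted p under 0.05 lay 6 members, beside 32.7% of all genes. No gene was called, members included, with no low count filter, with only the libraries compared, or with the GC trend as an offset. The vehicle in 3xTg was VehN, whose high levels of these genes enter the value, and the WT vehicle has no letter in its label, so a drug effect and a difference between vehicles cannot be told apart here.

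With the mean of VehN and VehD as the 3xTg vehicle the number called was again 3, with 1 gene in common. Errfi1 was at -0.32 and passed, Mt1 at 0.81 and Mt2 at 0.96 passed, and Tsc22d3 at -0.41 and Pdk4 at -0.46 did not. The count was also sensitive to single libraries. It was 0 without 3xTg NAVI replicate 3 or 4, VehN replicate 2 or 3, WT NAVI replicate 2, 3 or 4, or WT Veh replicate 1 or 4. It was 2 without 3xTg NAVI replicate 1, WT NAVI replicate 1 or WT Veh replicate 3, 5 without VehN replicate 1 or WT Veh replicate 2, and 6 without 3xTg NAVI replicate 2. The direction held throughout, with Tsc22d3 between -0.73 and -0.51, Pdk4 between -0.97 and -0.62 and Errfi1 between -0.49 and -0.36.

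Under NAVI the genotypes differed in the metallothioneins. Mt1 and Mt2, small cysteine-rich proteins that bind zinc and copper and are induced by metals, glucocorticoids and oxidative stress, both rose in 3xTg. They were 2 of 10 members called, beside 5.98% of all genes called and 3.29% called higher, and 3 members lay at an unadjusted p under 0.05, beside 27.4% of genes. Mt1 had 87.9, 79.0, 113 and 117 CPM in 3xTg NAVI, against 66.5, 60.4, 53.2 and 63.8 CPM in WT NAVI. Every 3xTg library lay above every WT library, as was so for 6.97% of genes, and the log2 value was 0.70 (SE 0.185, edgeR adjusted p = 0.0247). Mt2 had 61.0, 61.4, 81.6 and 93.3 CPM in 3xTg NAVI, against 43.0, 37.6, 32.7 and 39.4 CPM in WT NAVI. It was apart too, at 0.96 (SE 0.222, adjusted p = 0.0110), with the strand limit given above.

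Neither gene passed against vehicle in either genotype. Against its vehicle, NAVI put Mt1 at 0.36 (SE 0.184) in 3xTg and at -0.35 (SE 0.184) in WT, and Mt2 at 0.36 (SE 0.220) in 3xTg and at -0.44 (SE 0.221) in WT. With vehicle, 3xTg against WT was at -0.11 (SE 0.159) for Mt1 and at -0.004 (SE 0.191) for Mt2. The brain-enriched paralog Mt3 was at 0.44 (SE 0.183) between the genotypes under NAVI and did not pass there. Mt1 lost its call without 3xTg NAVI replicate 3 or 4 or WT NAVI replicate 2, 3 or 4, with log2 values of 0.62 to 0.79 over all libraries left out, while Mt2 passed each time (0.84 to 1.04). Errfi1 was at -0.18 (SE 0.0771), and passed without 3xTg NAVI replicate 2 (-0.26).

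Mt1 and Mt2 also followed the libraries' GC trend, the slope of a library's log2 CPM on gene GC content. The slope was 0.0440, -0.0315, 0.161 and 0.175 log2 CPM per SD of GC content in 3xTg NAVI, against 0.0127, -0.0181, -0.111 and -0.0386 in WT NAVI, so the 2 3xTg libraries with the most Mt1 also had the steepest slopes. With the GC trend removed as an offset both genes passed, at 0.62 for Mt1 and 0.80 for Mt2. That offset takes out only the average trend of genes of like GC content. Within groups Mt1 and Mt2 themselves followed the slope with r of 0.93 and 0.86. What they follow beyond the average trend stays in the values, and its part in the result was not tested. Markers of other cells separated the same groups. The 8 interneuron markers summed to 862 to 1030.5 CPM in 3xTg NAVI and 1108 to 1299 CPM in WT NAVI, and the 8 microglia markers to 486 to 609 CPM in 3xTg NAVI and 399 to 473 CPM in WT NAVI, both without overlap. Within groups Mt1 had an r of -0.53 with the interneuron markers that did not pass (permutation adjusted p = 0.219), and of -0.11 with the microglia markers. The part of these cells in the result was not tested.

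DQ moved none of the members past the threshold. In 3xTg against VehD none passed with edgeR, DESeq2 or limma-voom (edgeR called 0% of genes), none lay at an unadjusted p under 0.05 beside 1.83% of genes, and log2 values ran from -0.01 to 0.28. Fkbp5 had 85.7, 94.4, 86.3 and 83.5 CPM with DQ, all above the VehD libraries (1.12% of genes were higher without overlap), at 0.17 (SE 0.101). In WT against Veh none passed either with the 3 tools, edgeR called 0.00611% of genes, and Sgk1 alone of the members lay at an unadjusted p under 0.05, beside 3.38% of genes. Sgk1 had 188, 146, 110.3 and 166 CPM with DQ in WT, overlapping the vehicle libraries, at 0.45 (SE 0.220).

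Between genotypes under DQ no member passed with the 3 tools, beside 3.05% of genes with edgeR, and 2 lay at an unadjusted p under 0.05, beside 17.4% of genes. Pdk4 had 42.2, 34.8, 24.3 and 29.0 CPM in 3xTg DQ, against 22.1, 22.6, 22.4 and 30.6 CPM in WT DQ. Only WT replicate 4 reached into the 3xTg range, and the log2 value was 0.42 (SE 0.173, edgeR adjusted p = 0.211). Sgk1 had 121, 116, 85.4 and 114 CPM in 3xTg DQ, overlapping WT DQ, at -0.48 (SE 0.220, adjusted p = 0.258). No member passed in the test of the difference between the DQ effects with edgeR, DESeq2 or limma-voom, where edgeR called 0% of genes and none of the members lay at an unadjusted p under 0.05, beside 2.85% of genes.

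Within groups the members split into sets that varied together from library to library. Log2 CPM values were taken as deviations from the group mean over 28 libraries, and 8 of 45 pairs passed in a permutation test within groups, all positive. Sgk1 varied with Nfkbia (Pearson r = 0.87, permutation adjusted p = 0.0009, Spearman rho = 0.80) and with Tsc22d3 (r = 0.79, permutation adjusted p = 0.0012, rho = 0.70), and Tsc22d3 with Nfkbia (r = 0.68, permutation adjusted p = 0.0117, rho = 0.66). Without the 2 libraries farthest from the median of the first gene these r were 0.84, 0.70 and 0.58. Pdk4 varied with Sgk1 (r = 0.59, permutation adjusted p = 0.0206) and Tsc22d3 (r = 0.58, permutation adjusted p = 0.0233), although for the second the rho of 0.46 did not pass (permutation adjusted p = 0.12).

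Mt1 and Mt2 varied almost as 1 gene (r = 0.96, permutation adjusted p = 0.00045, rho = 0.93), and Per1 varied with both (r = 0.66 with Mt1, permutation adjusted p = 0.0106, and 0.56 with Mt2, permutation adjusted p = 0.0427). Fkbp5 and Zbtb16 had an r of 0.65 that did not pass (permutation adjusted p = 0.0561). The highest r of either with Sgk1, Tsc22d3, Nfkbia or Pdk4 was 0.31. Errfi1 was in no pair that passed.

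**Figure D4:**
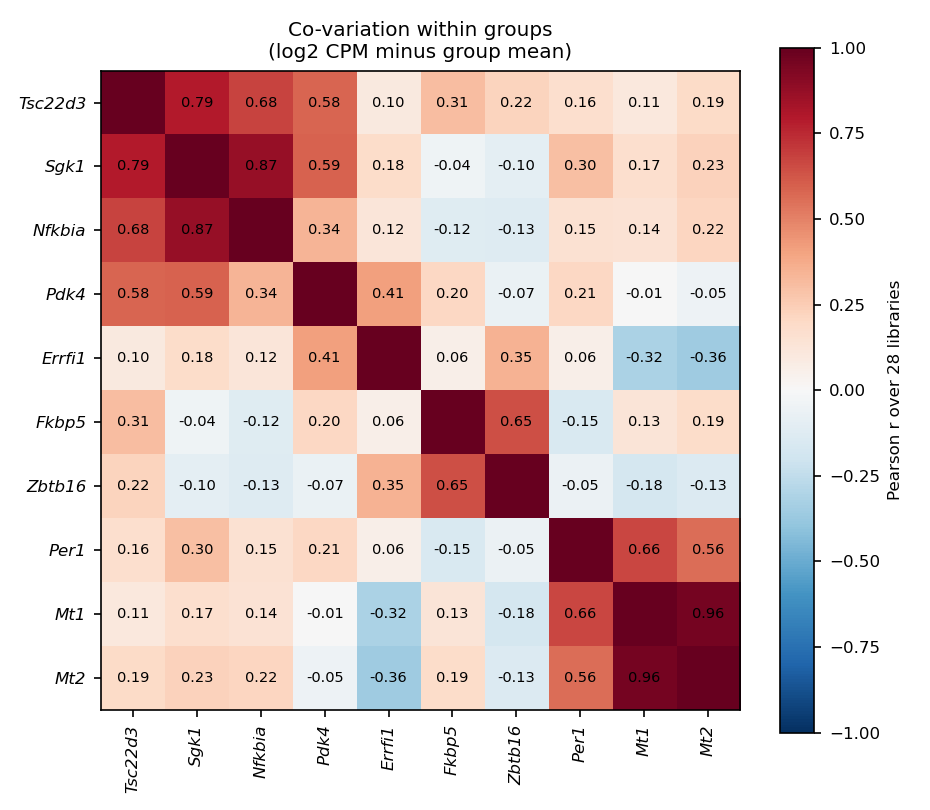
Pearson r between members over 28 libraries, from log2 CPM minus the group mean, coloured from -1 (blue) to 1 (red). Tsc22d3, Sgk1, Nfkbia and Pdk4 form a block at the upper left with r from 0.34 to 0.87, and Per1, Mt1 and Mt2 a block at the lower right with r from 0.56 to 0.96.

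Library measures were followed by some members. Of 120 relations between a member and a library measure, being the GC slope or 1 of 11 summed marker levels, 5 passed. Mt1, Mt2 and Per1 followed the GC slope, with r of 0.93 (permutation adjusted p = 0.0012), 0.86 (permutation adjusted p = 0.0024) and 0.68 (permutation adjusted p = 0.0234), and r of 0.90, 0.81 and 0.62 without the 2 farthest libraries. Sgk1, which oligodendrocytes are known to express strongly, followed the oligodendrocyte markers (r = 0.69, permutation adjusted p = 0.0012, rho = 0.72, and r = 0.71 without the 2 farthest libraries). Nfkbia (r = 0.57, permutation adjusted p = 0.0832), Pdk4 (r = 0.50, permutation adjusted p = 0.251) and Tsc22d3 (r = 0.49, permutation adjusted p = 0.314) did not pass with these markers. Zbtb16 ran against them (r = -0.55, permutation adjusted p = 0.0487), where rho missed (-0.57, permutation adjusted p = 0.0946). Between the vehicles, where Sgk1 was at a log2 value of 0.65, the 9 oligodendrocyte markers overlapped. They summed to 4656 to 8528 CPM in VehN and 4823 to 7076 CPM in VehD, and their part in the Sgk1 difference was not tested.

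**Figure D5:**
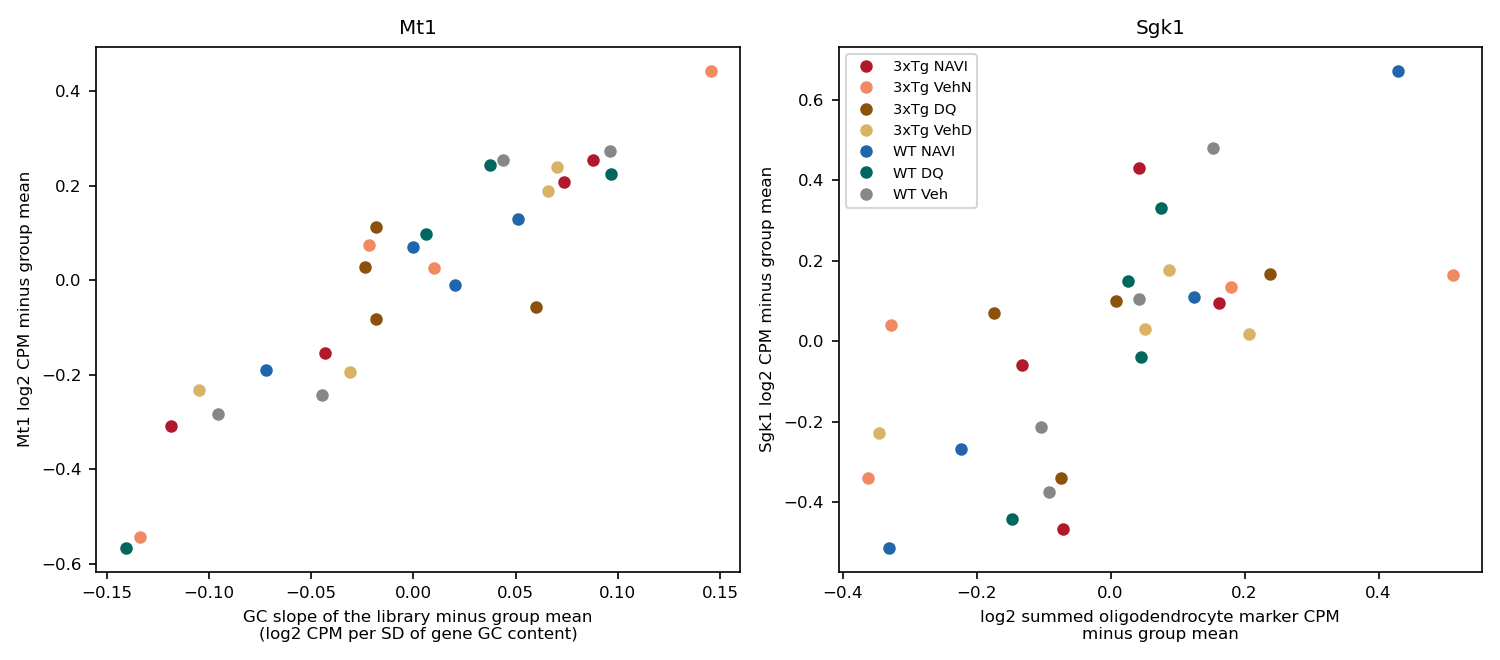
Left, log2 CPM of Mt1 minus its group mean against the GC slope of the library minus its group mean (log2 CPM per SD of gene GC content). Right, the same for Sgk1 against log2 of the summed oligodendrocyte marker CPM minus its group mean. Points are the 28 libraries, coloured by group, and both relations rise, with r of 0.93 and 0.69.

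The 6 genes outside the list whose deviations were most like the mean deviation of the 10 members, among 16359 compared over 28 libraries, were Ptpn11 (r = 0.83), Znfx1 (0.80), Klf15 (0.78), Slc2a1 (0.77), Ncoa3 (0.77) and Farp1 (0.77). Of the 6, only Klf15 is among the 24 further glucocorticoid-induced genes, and Ncoa3 encodes a coactivator of nuclear receptors. The mean of the members itself had an r of 0.55 with the GC slope and of 0.53 with the oligodendrocyte markers. The part of these measures in the likeness was not tested.

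The upstream and neighbouring parts of the pathway were read from further lists, each set beside the 13.1% of all genes called between 3xTg and WT with vehicle. Of 13 tested receptor, chaperone and steroid enzyme genes, 1 passed, the chaperone Hspa8, which rose (log2 0.28, SE 0.0933, edgeR adjusted p = 0.0449). Nr3c1 was at 0.16 (SE 0.0730, adjusted p = 0.123) and Nr3c2 at -0.01 (SE 0.0922), and over the 7 groups Nr3c1 averaged between 135 and 160.0 CPM and Nr3c2 between 147 and 154 CPM. Of 5 tested stress peptide genes, Crhr1, the receptor for corticotropin-releasing hormone, fell by 0.49 on the log2 scale (SE 0.122, adjusted p = 0.0117). Of the 24 further target genes Hif3a rose (0.76, SE 0.233, adjusted p = 0.0335) and none fell.

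Genes around single members changed between the genotypes with vehicle in both directions. Among 15 clock genes, the company of Per1, 3 rose and 2 fell, with Bhlhe41 at 0.25 (SE 0.0577, edgeR adjusted p = 0.00714), Npas2 at -0.37 (SE 0.0912, adjusted p = 0.0106) and Arntl at -0.25 (SE 0.0636, adjusted p = 0.0139). Among 10 genes of fatty acid oxidation and pyruvate dehydrogenase control, the company of Pdk4, the dehydrogenase Acadl rose (0.34, SE 0.0546, adjusted p = 0.000331) and Pdk2 fell (-0.25, SE 0.0782, adjusted p = 0.0363). Of 6 metallothionein and zinc genes the zinc importer Slc39a14 rose (0.16, adjusted p = 0.0398), and Mt3 was at -0.44 (SE 0.156, adjusted p = 0.0599). Among 11 NF-kB targets, the company of Nfkbia, the adhesion molecule Vcam1 rose (0.52, SE 0.148, adjusted p = 0.0232). None of 13 immediate early genes passed with edgeR in this comparison, and 3 lay at an unadjusted p under 0.05, beside 32.3% of all genes.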

How the data were processed

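Stranded poly(A) libraries of female mouse hippocampus were sequenced as read pairs, per the labels' protocols. STAR, Subread, featureCounts and mm10 appear in the submitters' processing notes with neither versions nor roles. Neither the annotation nor the strand setting is stated there, nor how reads matching more than 1 gene were treated. The authors deposited raw counts per gene symbol, 1 column per library, and 0 columns went unused. The members and gene lists were chosen with earlier results of these data known.

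Counts were tested with edgeR 4.0.16 in R 4.3.3 (quasi-likelihood F test, TMM factors, filterByExpr by group, 1 coefficient per group, all 28 libraries, 21 residual degrees of freedom). Genes were called at a Benjamini-Hochberg adjusted p under 0.05 over 16369 genes, in 10 comparisons. Each SE was the size of the log2 value divided by the root of F. The script was tested on simulated data. VehN served as the vehicle of NAVI and VehD as that of DQ in 3xTg, by the letter in the labels, and Veh as that of both drugs in WT. The comparisons therefore share samples, and their values are set side by side only. CPM use TMM factors, and log2 CPM a prior count of 2.

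Deviations from group means were correlated with 100000 two-sided permutations within groups, adjusted over 45 pairs of members or over 120 relations with library measures. The GC slope used 15590 genes with a GC value, 95.2% of those tested, all 10 members among them. Positions are GENCODE vM21 on GRCm38. Named genes were the 10 members, Nr3c1, Nr3c2, Fkbp4 and Hsd11b1, up to 3 genes of the smallest p in each list described, and the 6 genes most like the members' mean. Klf9, Mt3 where it was not among those, and Gm45774 were named after their values were seen.

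Every pair of libraries within a group differed by more than sampling noise (chi-square at least 12.3 per degree of freedom). The labels number the libraries but do not say that each is a different animal, so p-values measure the spread between these libraries, and no batch is given. Alternatives were RLE size factors, DESeq2 1.42.0, limma-voom (limma 3.58.1), no filter, only the libraries of a comparison, the replicate number as a block, other vehicle references and leaving out each library.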

Additional observations from a re-analysis of the deposited data

Results flagged for a closer look

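In groups of 4 libraries, a highest or lowest value was singled out when its gap to the nearest library was past Dixon's 95% critical value. Of 70 groups of member values 7 had such a library, and chance alone gives about 1 group in 20. Tsc22d3 was low in 3xTg DQ replicate 3, at 71.2 CPM with the nearest library at 79.8 CPM, and high in VehN replicate 2, at 132 CPM with the nearest at 102 CPM. Pdk4 was high in 3xTg NAVI replicate 2, at 49.6 CPM with the nearest at 32.8 CPM, and in WT DQ replicate 4, at 30.6 CPM with the nearest at 22.6 CPM. Per1 was high in WT Veh replicate 1, at 67.9 CPM with the nearest at 48.0 CPM. Mt2 was low in 3xTg DQ replicate 1, at 45.9 CPM with the nearest at 58.4 CPM, and in WT DQ replicate 2, at 33.3 CPM with the nearest at 57.8 CPM.

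The NAVI effect differed between 3xTg and WT in the edgeR test of that difference for Tsc22d3 (log2 -0.64), Pdk4 (log2 -0.78) and Errfi1 (log2 -0.42). The 3xTg vehicle in these values is VehN. Over 16 libraries left out in turn, Tsc22d3 lost its call 9 times, Pdk4 12 times and Errfi1 9 times. None of the 3 was called with no low count filter, with only the libraries compared, or with the GC trend as an offset.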

How the results depend on the processing

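Log2 values of members were followed under each alternative only where the edgeR fit above gave an unadjusted p under 0.05. Of these, 465 kept their direction and side of the threshold, 27 came to pass it, 48 no longer passed it and none changed direction with a call. Values chosen in this way lay well away from 0 for their SE, so a kept direction says little. Between 3xTg and WT with vehicle 1 member was called, 2 with VehN alone, 0 with VehD alone and 1 to 2 with a library left out. Between genotypes under NAVI 2 were called, and 1 to 3 with a library left out. For NAVI in 3xTg 0 were called, 1 with DESeq2, 1 against the mean of both vehicles and 0 to 3 with a library left out. For the difference between the NAVI effects 3 were called, against 0 with no low count filter, 0 with only the libraries compared, 6 with DESeq2 and 0 to 6 with a library left out. The GC trend offset gave 0 and the choroid plexus and thalamus covariates 5 for that difference. These last settings, and the mean of the vehicles for that difference, were chosen after seeing the data. In the other 6 comparisons no member was called under any setting. The cause was not tested.

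Counts over all genes moved more. NAVI in 3xTg had 0 genes called by edgeR, 2000 by DESeq2, 1541 against the mean of both vehicles and 0 to 3578 with a library left out. Its difference from WT had 1331, against 0 with no filter, 0 with only the libraries compared, 0 with the GC offset, 3004 with DESeq2, 3266 with the tissue covariates and 0 to 4214 with a library left out. Genotype under NAVI had 979, against 1641 with DESeq2, 535 with only the libraries compared and 375 to 1920 with a library left out. Genotype with vehicle had 2142, against 1118 with only the libraries compared, 623 with VehD alone and 873 to 3482 with a library left out. Genotype under DQ had 500, and 263 to 632 with a library left out. DQ in WT had 1, against 4 with DESeq2, 0 with limma-voom, 0 with only the libraries compared, 2 with the GC offset and 1 to 5 with a library left out. NAVI in WT had 0, against 3 with DESeq2, 1 with limma-voom and 0 to 1 with a library left out. The vehicles had 0, against 2 with DESeq2 and 0 to 1 with a library left out, and the difference between the DQ effects 0, against 1 with DESeq2 and 1 with the tissue covariates.

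With the replicate number as a block, 1 member (Tsc22d3) was called for NAVI in 3xTg and 6 for the difference between the NAVI effects, and genes called were 2317, 3315, 1884 under NAVI and 3283 with vehicle between genotypes. The block changed no other count of members. Over 36 pairs of same-numbered libraries r ran from -0.384 to 0.463 with a median of 0.0361. Of these pairs 14 were over 0.1, and in 11 a library correlated best with its own number. These values showed no steady pairing by number. They cannot tell whether some same-numbered libraries share a batch, which the labels do not give.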

Other observations

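Immediate early genes, the fast transcripts of neuronal activity among which Per1 is often counted, leaned upward with NAVI in both genotypes without passing. In 3xTg all 13 were positive against VehN, beside 47.9% of all genes, with a median log2 value of 0.63. At an unadjusted p under 0.05 lay 8 of them, beside 29.1% of all genes. In WT 12 of 13 were positive against Veh, beside 50.1% of all genes, with a median of 0.43. There 7 lay at an unadjusted p under 0.05, beside 7.74% of all genes. With DQ 9 of 13 were positive in 3xTg, beside 49.1% of all genes, with a median of 0.07. In WT 13 of 13 were positive with DQ, beside 48.6% of all genes, with a median of 0.46. Of these, 4 lay at an unadjusted p under 0.05, beside 3.38% of all genes. None passed in these 4 comparisons with edgeR. Between genotypes under DQ, where 3.05% of all genes were called, Arc fell (log2 -0.94, edgeR adjusted p = 0.0356) and Nr4a1 fell (-0.83, adjusted p = 0.0491), as did Dusp1 (-0.83, adjusted p = 0.0470), a phosphatase induced by both glucocorticoids and activity.

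Some neighbours of the members were called between genotypes under NAVI or in the difference between the NAVI effects, where 5.98% and 8.13% of all genes were called, so that 1 or 2 calls in a short list are near the background. Of 11 NF-kB targets Bcl3 rose in 3xTg under NAVI (log2 2.46, edgeR adjusted p = 0.00180), and of 6 metallothionein and zinc genes the zinc importer Slc39a10 fell (-0.38, adjusted p = 0.0431). For the difference between the NAVI effects Mt3, 1 of the same 6 genes, was called higher in 3xTg (0.91, SE 0.259, adjusted p = 0.0433), with 202 ± 40.9 CPM with NAVI and 136 ± 39.6 CPM with VehN in 3xTg, and 148 ± 27.2 CPM with NAVI and 187 ± 39.1 CPM with Veh in WT (SD, n = 4 each). Among 15 clock genes Nr1d1 was called higher (0.71, adjusted p = 0.0436) and its relative Nr1d2 lower (-0.66, adjusted p = 0.0427). That difference was called for no member once the GC trend was removed, an alternative for which these genes were not recomputed.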
